A study of Mus musculus with 7 samples.

Results

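Of 1079 regions bound in a β-catenin ChIP-seq library from mouse branchial arches, 280 (25.9%) lay in intergenic sequence and had no Pygo2 peak on them. A region was counted here when its 169 bp peak shared not even 1 bp with any of the 7150 Pygo2 peaks, and when its centre was outside every protein-coding gene and more than 1 kb from each gene start and end. These peaks stood next to 63 intergenic β-catenin peaks that overlapped a Pygo2 peak ("shared") and 1582 intergenic Pygo2 peaks without β-catenin ("Pygo2-only"), which served for comparison. The regions were chosen by the authors' peak calls in these same libraries, so their number, their lack of Pygo2 overlap and their distance of over 1 kb from genes are descriptions and were not tested.

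In canonical Wnt signalling a ligand stabilises β-catenin, which then enters the nucleus and switches on target genes. β-catenin does not bind DNA itself and is held on chromatin mainly by TCF/LEF factors, often at enhancers far from the genes they control. Pygo2 is a PHD-finger protein that joins β-catenin through the adaptor Bcl9, and the study's title links mutations of the Bcl9 and Pygo genes to heart defects and Wnt signalling. Branchial arches form on each side of the embryonic pharynx and build parts of the face and neck and the vessels leaving the heart.

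Chromatin came from pooled arches of wild-type embryos (10.5 days post coitum), fixed with a protein cross-linker and formaldehyde. The 7 libraries were input from BA1 and BA2, IgG (pre-immune serum) from BA1, and β-catenin and Pygo2 ChIPs from each of BA1 and BA2. Whether these names mean different arches or repeat collections is not given in the labels. The 2 lists used here come from β-catenin BA2 and Pygo2 BA2, both called against IgG BA1 per the file headers, so there is 1 library per protein and no replicate error for any value. Intervals are Wilson intervals at 95%, and they hold only the error of counting peaks.

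Per the file headers, 13672937 tags were used for β-catenin and 15009636 for Pygo2. Of the β-catenin tags 0.116% lay in peaks, a mean of 14.6 per peak against a calling minimum of 11. Each peak carries the same deposited score of 1, which leaves the strength of a single region unknown here. Peak positions carry no expression levels, and the tissue label was therefore not checked against marker genes.

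The DNA of 4 of the 280 regions could be read in part, because they covered RefSeq promoter windows (300 bases around the start of a transcript, build GRCm38.p6, the assembly of mm10) of 5 long non-coding RNA (lncRNA) genes. They are shown 5′ to 3′ along the strand of the gene, with the bases under the β-catenin peak in capitals, since these are the only regions whose sequence can be set beside a peak.
Gm3716: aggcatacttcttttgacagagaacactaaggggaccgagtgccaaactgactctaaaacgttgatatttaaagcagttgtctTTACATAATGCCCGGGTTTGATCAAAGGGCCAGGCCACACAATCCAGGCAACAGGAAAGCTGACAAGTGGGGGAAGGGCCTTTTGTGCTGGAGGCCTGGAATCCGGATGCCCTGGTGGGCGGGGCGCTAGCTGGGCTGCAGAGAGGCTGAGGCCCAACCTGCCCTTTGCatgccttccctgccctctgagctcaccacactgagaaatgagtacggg
Gm6559: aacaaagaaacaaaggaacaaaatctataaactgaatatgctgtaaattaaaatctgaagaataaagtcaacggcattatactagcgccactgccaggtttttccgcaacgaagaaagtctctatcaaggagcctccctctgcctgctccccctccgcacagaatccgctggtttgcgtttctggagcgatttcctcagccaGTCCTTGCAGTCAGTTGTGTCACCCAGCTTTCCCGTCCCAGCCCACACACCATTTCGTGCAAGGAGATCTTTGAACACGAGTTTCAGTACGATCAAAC
Gm51670: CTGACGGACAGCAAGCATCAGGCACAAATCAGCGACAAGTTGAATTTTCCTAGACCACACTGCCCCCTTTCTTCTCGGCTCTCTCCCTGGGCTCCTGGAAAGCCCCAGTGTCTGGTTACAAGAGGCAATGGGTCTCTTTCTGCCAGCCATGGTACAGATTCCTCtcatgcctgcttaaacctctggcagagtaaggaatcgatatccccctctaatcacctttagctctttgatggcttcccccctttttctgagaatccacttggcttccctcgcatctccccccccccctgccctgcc
LOC115486408: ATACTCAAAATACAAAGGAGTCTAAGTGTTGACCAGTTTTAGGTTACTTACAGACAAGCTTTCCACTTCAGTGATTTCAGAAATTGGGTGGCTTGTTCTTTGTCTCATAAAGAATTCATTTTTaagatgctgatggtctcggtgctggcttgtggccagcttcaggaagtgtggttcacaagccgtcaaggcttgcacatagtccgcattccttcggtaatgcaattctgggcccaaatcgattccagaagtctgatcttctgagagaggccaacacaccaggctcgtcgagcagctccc
Gm35940: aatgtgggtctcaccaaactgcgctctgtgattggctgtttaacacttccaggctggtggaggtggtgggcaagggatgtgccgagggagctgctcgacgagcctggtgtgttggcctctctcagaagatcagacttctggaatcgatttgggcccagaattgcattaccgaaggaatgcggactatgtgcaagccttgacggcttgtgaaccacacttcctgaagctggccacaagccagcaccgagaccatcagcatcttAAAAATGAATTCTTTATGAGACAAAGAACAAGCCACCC
The Gm3716 window is chr5:64610650-64610949 on the minus strand and holds all 169 bases of the peak chr5:64610698-64610866. The peak centre was 83 bp from the start of the gene. The Gm6559 window is chr6:51379460-51379759 on the plus strand, and 98 bases of the peak chr6:51379662-51379830 were in it, with the centre 36 bp from the start. The Gm51670 window is chr9:41579597-41579896 on the minus strand and held 164 bases of the peak chr9:41579733-41579901. LOC115486408 (chr9:41805634-41805933, minus strand) and Gm35940 (chr9:41805549-41805848, plus strand) are transcribed away from each other, and the same peak, chr9:41805811-41805979, covered 123 and 38 bases of their windows. This last region had the smallest gap to a Pygo2 peak of all 280, with 6 bases between the peaks.

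The promoter region of Gm3716 held a TCF/LEF motif under the peak. The motif searched was CTTTGAT on both strands, and 3.73% of all 32851 promoter windows hold it. In the Gm3716 peak it lay on the opposite strand, 144 bases before the start site, as shown here in capitals.
Gm3716 TCF/LEF: gcccgggtttgATCAAAGggccaggccaca
The same peak held GGGCGGG, the GC box bound by Sp factors, 48 bases before the start site, a motif found in 25.6% of the windows.
Gm3716 GC box: gatgccctggtGGGCGGGgcgctagctggg
The Gm51670 window also held CTTTGAT, but 63 bases past the edge of the peak, near the start site.
Gm51670 TCF/LEF: cacctttagctCTTTGATggcttcccccct
The Gm6559, LOC115486408 and Gm35940 windows held neither motif. None of the 5 windows held TGANTCA (AP-1, 7.81% of all windows), TAATTA (homeodomain, 5.29%) or the CTCF motif (2.43%). The bases under the peak were 60.9% G or C at Gm3716, 51.0% at Gm6559, 53.7% at Gm51670 and 34.1% at LOC115486408, against a median of 52.7% over whole promoter windows. A match of letters is a description and not a binding site.

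The Gm51670 region lay inside Mir100hg (chr9:41376526-41615185), the lncRNA gene that hosts let-7a-2, miR-100 and miR-125b-1. Its centre was 2109 bp from the hairpin of miR-125b-1, whose mature form, a relative of the worm developmental timing microRNA lin-4, is shown with its seed in capitals.
mmu-miR-125b-5p: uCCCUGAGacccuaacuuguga
No Pygo2 peak lay within 50 kb of miR-125b-1, and the nearest to the region was 55.2 kb away. The hairpins of let-7a-2 and miR-100 were 43.0 kb and 48.3 kb from it. Each of these 2 hairpins had 1 Pygo2 peak within 50 kb, and the whole Mir100hg gene had 2. The region shared by LOC115486408 and Gm35940 was on the same chromosome, and Gm40514 was the nearest protein-coding gene of both, at 326 kb and 100.1 kb. Hairpins in the RefSeq table of microRNA sequences lay within 20 kb of 6 regions, among them Mir125b-1, Mir3089 (2.42 kb) and Mir6935 (3.65 kb). In the RefSeq gene table, Mir145a was the closest microRNA gene to a region, at 801 bp.

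Distance from genes was part of how the regions were chosen and is given as a description, with no test. Their median distance to the nearest start or end of a protein-coding gene was 33.3 kb, against 20.4 kb for shared and 20.5 kb for Pygo2-only intergenic peaks. More than 100 kb from any gene end lay 82 of the 280 regions (29.3%, interval 24.3 to 34.9%), 294 of 1582 Pygo2-only peaks (18.6%, interval 16.7 to 20.6%) and 11 of 63 shared peaks (17.5%, interval 10.0 to 28.6%). Beyond 500 kb the shares were 6.07% of the regions, 1.64% of Pygo2-only and 3.17% of shared peaks. Each list was then shortened at its middle and the classes formed anew, so peaks whose overlapping peak was cut counted as not shared. In these classes, 28.2% of β-catenin-only, 7.75% of Pygo2-only and 20% of shared intergenic peaks were more than 100 kb away. All these shares compare peak positions of 1 library per protein and not embryos.

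**Figure D1:**
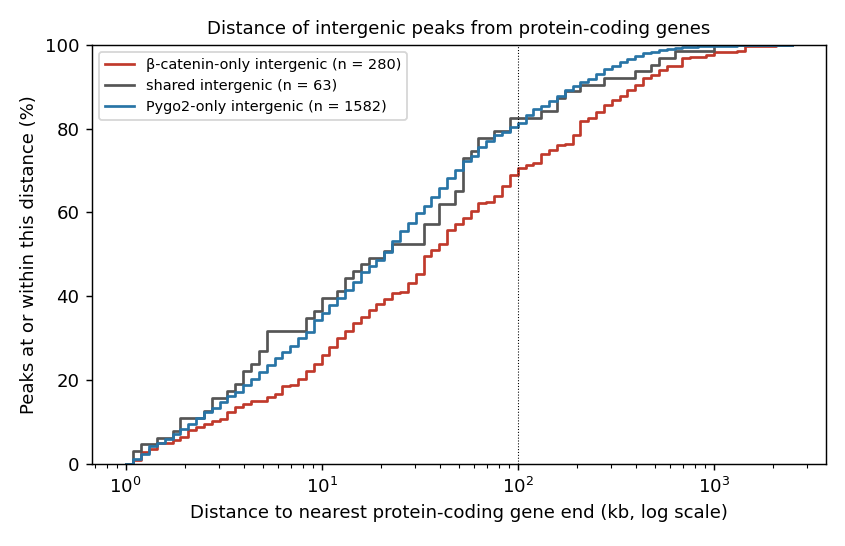
Cumulative share of intergenic peaks (vertical axis, percent) by distance to the nearest protein-coding gene end (horizontal axis, kb, log scale) for the 280 β-catenin-only, 63 shared and 1582 Pygo2-only peaks. The β-catenin-only curve lies below the others at 100 kb (dotted line), where 29.3% of its peaks are still farther away, against 17.5% and 18.6%.

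The most isolated regions sat in long stretches without protein-coding genes. The 10 farthest were between 687 kb and 1956 kb from a gene end. Their nearest genes were Slc39a10, a zinc transporter gene (1956 kb), Pcdh17, a protocadherin gene (1433 kb), Olfm4 (1354 kb), Efnb2, which encodes the Eph receptor ligand ephrin-B2 (1328 kb), and Rpia (1249 kb). The region nearest to Rpia was inside Igk, whose immunoglobulin segments were not counted as protein-coding genes. Hace1, a ubiquitin ligase gene, followed at 965 kb, then Nxph1 at 937 kb, Map3k7, which encodes the kinase TAK1, at 875 kb, Ccdc85a at 737 kb and Gm40892 at 687 kb. The stretch between the flanking protein-coding genes had a median length of 152 kb for the regions, 100.5 kb for Pygo2-only and 79.5 kb for shared intergenic peaks.

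At the near end of the rule, the closest region was 1012 bp from a gene end, at Rab3a, a vesicle transport gene. The farthest β-catenin-only peak outside genes that was left out by this limit was at 978 bp. The 9 next closest were at Sec24c (1.05 kb), Mex3d (1.07 kb), Borcs6 (1.14 kb), Podxl (1.15 kb), Rsrp1 (1.16 kb), Akap8l (1.16 kb), Spsb1 (1.18 kb), Irx5, a homeobox gene (1.23 kb), and Kiss1r (1.28 kb). Between 1 and 10 kb from a gene end were 73 regions (26.1%), and between 10 and 100 kb 125 (44.6%). The nearer end of the nearest gene was its start for 121 of 221 regions where the strand was known (54.8%), against 51.9% of Pygo2-only and 55.1% of shared peaks. Neither difference passed (two-sided Fisher's exact test, Benjamini-Hochberg adjusted p = 0.557 and 1).

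Pygo2 peaks were close to some of the regions and farther from others. The gap to the nearest Pygo2 peak had a median of 84.7 kb. It was 6.21 kb for β-catenin-only peaks at gene ends and 46.5 kb for those inside genes. Within 1 kb of a region lay a Pygo2 peak in 43 cases (15.4%), and within 100 kb in 148 (52.9%). Regions within 10 kb of a gene end had a median gap of 9.96 kb, those at 10 to 100 kb 89.9 kb, and those beyond 100 kb 284 kb. Across the 280 regions the gap and the gene distance had a Spearman's rho of 0.46, a description over points that share the gene map. More than 100 kb from both a gene end and a Pygo2 peak were 56 regions.

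The 5 regions closest to a Pygo2 peak missed it by 6 to 34 bases. They were the one at LOC115486408 and Gm35940 (6 bases), those near Ptma (9 bases) and Haao (11 bases), the one at Malat1 (18 bases) and the one 263 kb from Ndfip2 (34 bases). On the other side of the limit, the smallest overlap among the 63 shared peaks was 2 bp, and 15 of them overlapped by less than 85 bp. With regions within 500 bp of a Pygo2 peak left out, 248 remained, and the shared class was kept as it was.

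**Figure D2:**
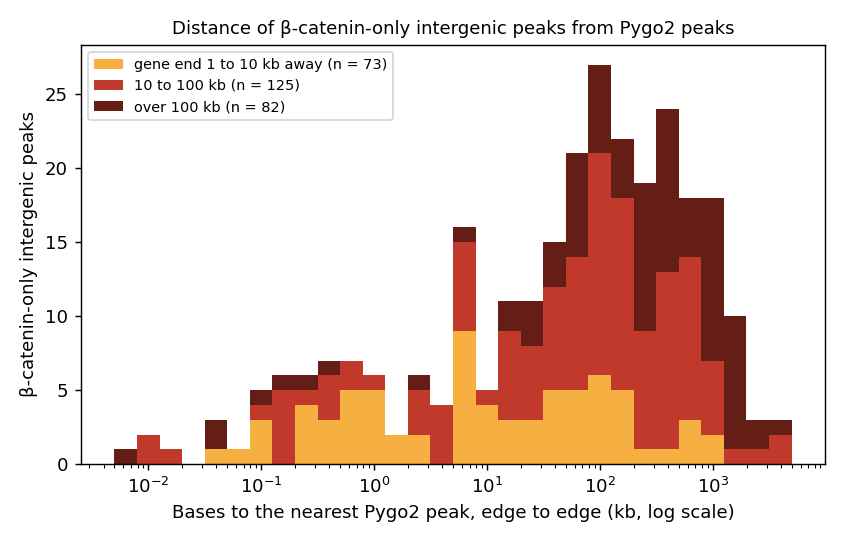
Number of β-catenin-only intergenic peaks (vertical axis) by the gap to the nearest Pygo2 peak, edge to edge (horizontal axis, kb, log scale), stacked by distance to the nearest protein-coding gene end. Of the 43 peaks with a gap of 1 kb or less, 20 lie 1 to 10 kb from a gene end, 16 at 10 to 100 kb and 7 beyond 100 kb.

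Some of the regions lay at non-coding genes, which the rule did not use, with a share below those of both comparison classes. Non-coding here means any RefSeq gene not typed as protein-coding. Pseudogenes (4 regions), a transcribed pseudogene (1) and the immunoglobulin locus Igk (2) are thus included. The centre was inside or within 1 kb of such a gene for 77 of the 280 regions (27.5%, interval 22.6 to 33%). The share was 27 of 63 for shared peaks (42.9%, interval 31.4 to 55.1%) and 512 of 1582 for Pygo2-only peaks (32.4%, interval 30.1 to 34.7%). Neither difference passed after adjustment (odds ratio 0.506, two-sided Fisher's exact p = 0.0224, adjusted p = 0.0671 against shared peaks, and 0.793, p = 0.109, adjusted p = 0.164 against Pygo2-only peaks). The first passed with Pygo2 peaks within 500 bp counted as shared (adjusted p = 0.0228, Fisher's exact test) and without predicted protein-coding genes (adjusted p = 0.0472). Its adjusted p in Fisher's exact test lay between 0.0228 and 0.659 across 8 alternatives. The other 203 regions (72.5%) had no annotated gene of any type within 1 kb.

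Transfer RNA (tRNA) genes, short genes read by RNA polymerase III, were within 1 kb of 11 regions (3.93%, interval 2.21 to 6.90%). The share was 2.97% of Pygo2-only and 4.76% of shared intergenic peaks, and these intervals overlap. The peak centres were 28 to 877 bp from the nearest tRNA gene, with a median of 133 bp, and 8 of the 11 had a Pygo2 peak within 1500 bp that did not overlap. The earliest listed, at chr11:69062632-69062800 and 1.14 kb from Borcs6, was 28 bp from n-TTagt7, a threonine tRNA gene, with 4 tRNA genes within 1 kb and a Pygo2 peak 771 bases away. The next, chr11:69040422-69040590, lay 22.2 kb from it, 4.03 kb from the telomere maintenance gene Ctc1 and 50 bp from n-TPcgg3, a proline tRNA gene. At chr3:96500693-96500861 a histidine, a glycine and a glutamate tRNA gene were within 1 kb, and the Pygo2 gap was 138 bases. Many tRNA genes have near-identical copies elsewhere in the genome, so the placing of tags next to them is uncertain, and this was not tested. Between 21 and 24 Mb of chromosome 13 were 4 regions, all at tRNA genes. Their nearest protein-coding genes were H2bc11, which encodes a histone H2B, at 6.28 kb, Abt1 at 9.31 kb, Btn1a1 at 11.7 kb and Trim27 at 39.1 kb.

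Other small RNA genes were rare among the regions. The snRNA genes, whose products act in splicing, were near 2 regions, at Gm23296 on chromosome 12 and Gm23287 on chromosome 4, against 20 of 1582 Pygo2-only (1.26%) and 1 of 63 shared peaks. Rny1, a Y RNA gene, was 476 bp from the centre of chr6:47788572-47788740. No region was near a snoRNA gene (0 of 280, interval up to 1.35%), against 2 of 63 shared and 5 of 1582 Pygo2-only peaks (0.316%). The immunoglobulin kappa locus Igk on chromosome 6 held 2 regions, listed at positions 44 and 1075.

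Long non-coding RNA genes were the largest class, with 60 regions (21.4%, interval 17.0 to 26.6%), of which 51 were inside the gene. Of 46 regions with a known lncRNA start, 9 were within 1 kb of it. The shares for shared and Pygo2-only peaks were 34.9% and 27.7%. Malat1, the gene of an abundant nuclear RNA, had a region 681 bp upstream of its start, at chr19:5803269-5803437, list position 84, with a Pygo2 peak 18 bases away. The neighbouring Carmn and Bvht genes on chromosome 18, lncRNAs described in cardiovascular lineage commitment, held the region chr18:61646940-61647108, and the microRNA gene Mir145a was 801 bp from its centre. Another region lay 914 bp from the nearer end of Carmn. The nearest protein-coding gene of both was Il17b, at 40.9 kb and 21.5 kb. A region at list position 129 was inside 1700003P14Rik, and its nearest protein-coding gene at 128 kb was Fgf10, which encodes a growth factor of arch and limb development.

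**Figure D3:**
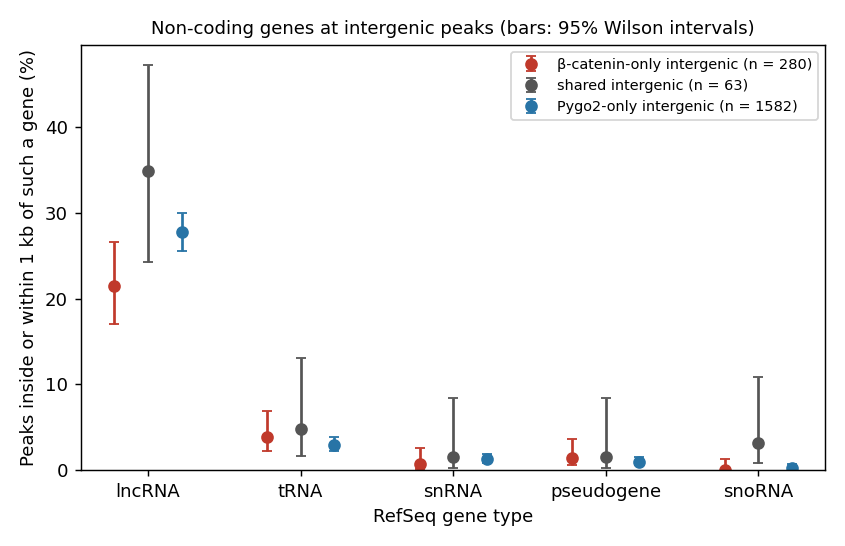
Share of intergenic peaks inside or within 1 kb of each type of non-coding RefSeq gene (vertical axis, percent, with 95% Wilson intervals) for β-catenin-only (280), shared (63) and Pygo2-only (1582) peaks. lncRNA genes have the highest share in each class (21.4%, 34.9% and 27.7%), and tRNA shares are 3.93%, 4.76% and 2.97%.

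Many Hox genes lay within reach of the regions, through few peaks. Over all 21887 protein-coding genes, 763 (3.49%) had one of the regions within 100 kb of an end. Of 39 Hox genes, which set position along the body axis, 19 did, and all of these came from 2 peaks in the HoxA and HoxD clusters. The HoxA peak, chr6:52257162-52257330, lay between Hoxa11 (11.4 kb) and Hoxa13 (1.61 kb), with no Pygo2 peak within 84.2 kb. It reached 11 Hox genes, and Hottip, a lncRNA gene of the same cluster, was 5.53 kb away. The HoxD peak, chr2:74646952-74647120, lay outside the cluster, 5.95 kb from the homeobox gene Evx2 and 21.2 kb from Hoxd13, and reached 8 genes. Its nearest Pygo2 peak was 517 kb away. With a 5 kb margin around genes the HoxA peak was left out and 8 Hox genes were counted. With the lists shortened at their middle the count was 11.

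Of 61 Wnt pathway components 7 had a region within 100 kb (11.5%), and of 30 Wnt target genes 1 (3.33%). The components were Wnt2 (28.4 kb), a ligand gene, Apc2 (32.2 kb) and Csnk1a1 (56.7 kb) of the β-catenin destruction machinery, and the secreted inhibitor gene Sfrp1 (62.4 kb). The receptor genes Ryk (62.6 kb) and Fzd10 (80.7 kb) and the ligand gene Wnt8b (92.8 kb) completed them. At 6 of the 7 another gene was nearer to the peak, and Sfrp1 alone was the nearest gene of its own region, with the next Pygo2 peak 541 kb away. Within 50 kb, where the count over all genes was 1.85%, 2 of the 61 had a region. The Wnt target was Cdx4, a caudal homeobox gene of posterior patterning, at 56.4 kb. None of the other Wnt targets, Axin2, Lef1 and Lgr5 among them, had a region within 100 kb.

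Arch patterning genes with a region within 100 kb were 5 of 53 (9.43%). At Lhx8, a LIM homeobox gene of the first arch, the region was at 33.3 kb. The nearest Pygo2 peak to that region was 37.8 kb away, while a Pygo2 peak lay inside Lhx8 itself. Hoxa2 (92.4 kb) and Hoxa3 (44.2 kb) were counted through the HoxA peak, and without it, with the 5 kb margin, 3 genes were. None of 51 heart development genes had a region within 100 kb.

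Of 50 genes of BMP, FGF, Hedgehog and Notch signalling 3 did (6%). Id3, which encodes an inhibitor of basic helix-loop-helix factors and answers BMP signals, had a region 3.55 kb away at chr4:136140191-136140359, inside the lncRNA gene Gm42329, with a Pygo2 peak at 105 bases. Fgfr2, which encodes an FGF receptor, was at 96.0 kb. Ribosomal protein genes numbered 6 of 76 (7.89%), with Rpl12 at 2.90 kb and Rps26 at 11.4 kb. Of 25 pharyngeal epithelium genes 3 had a region (12%), namely Irx5 (1.23 kb), Krt18 (33.8 kb) and Krt8 (61.5 kb). Krt18 and Krt8 were counted through the same peak, so these 3 genes rest on 2 peaks. The other lists held Erbb3 of 27 neural crest genes (23.5 kb), Msc of 16 arch muscle genes (59.8 kb) and Cyp2e1 of 20 hepatocyte genes (13.3 kb). None of the 43 neuronal, 20 endothelial and 20 blood genes had a region. The lists were described by counts alone, genes in a cluster share peaks, and no list was tested against others.

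**Figure D4:**
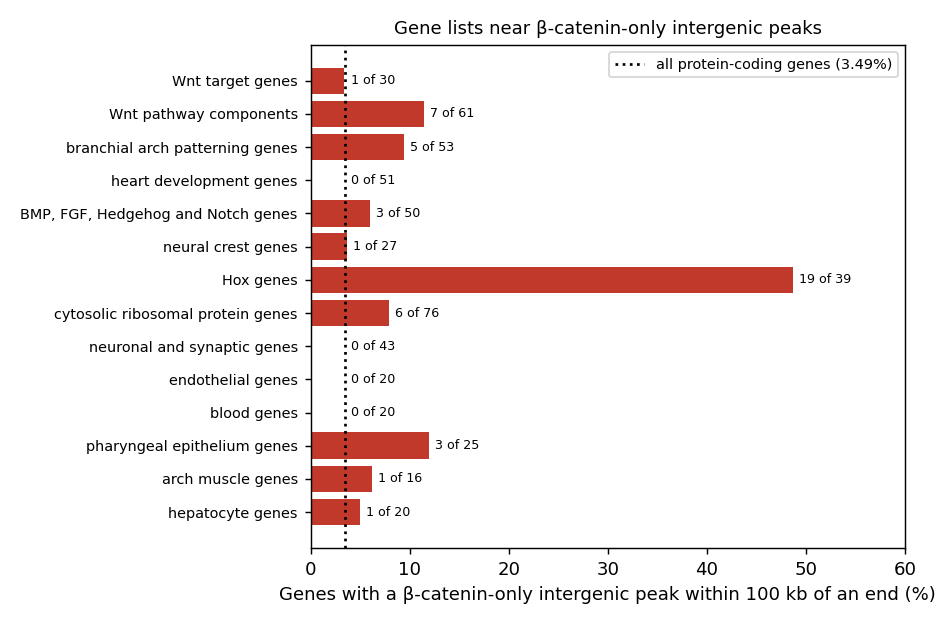
Share of each gene list (horizontal axis, percent) with a β-catenin-only intergenic peak within 100 kb of a gene end, with the number of genes beside each bar. The dotted line is the share of all protein-coding genes, 3.49%, and the Hox bar, at 19 of 39 genes, rests on 2 peaks.

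Along the deposited β-catenin list the share of these regions changed by less than its intervals. The list falls into 40 runs, in each of which peaks are sorted by chromosome and position, with 1 to 255 peaks per run. Position within a run therefore follows the genome, and only the order of the runs can rank peaks. The headers do not say on which value. The regions made up 23.5% of the 68 peaks of runs 1 to 24 (interval 15.0 to 34.9%), 25% of the 224 in runs 25 to 32, 25.4% of the 622 in runs 33 to 36 and 30.3% of the 165 in runs 37 to 40 (interval 23.8 to 37.7%). Shared intergenic peaks made up 20.6%, 8.93%, 4.02% and 2.42% of the same groups. Distal regions were 25%, 35.7%, 26.6% and 32% of the regions in the groups, and none of the 11 regions at tRNA genes was in the last.

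**Figure D5:**
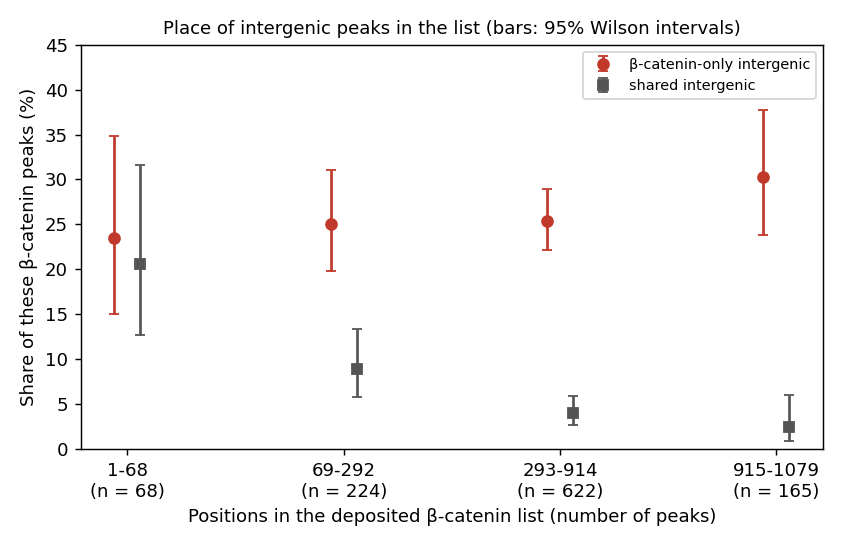
Share of β-catenin peaks (vertical axis, percent, with 95% Wilson intervals) that are β-catenin-only intergenic or shared intergenic, in 4 stretches of the deposited list (horizontal axis, list positions with the number of peaks). The β-catenin-only share runs from 23.5% to 30.3%, and the shared share from 20.6% in the first stretch to 2.42% in the last.

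The first-listed regions were mixed in their surroundings. Of the first 20, which end at list position 76, 5 were more than 100 kb from a gene end and 7 were at a non-coding gene. Over all 280 regions these shares were 29.3% and 27.5%. No Pygo2 peak lay within 100 kb of 14 of the 20, while 52.9% of all 280 had one within that distance. The earliest was at position 15, chr6:132463693-132463861, 99.6 kb from Gm8882 and 642 kb from a Pygo2 peak. Others among them were near Blm, a DNA helicase gene (17.9 kb, inside the lncRNA gene Gm42398), Zcchc14 (35.5 kb) and Ccn1, which encodes a secreted matrix protein (41.1 kb). Later in the list were regions near Tbc1d23 (10.4 kb), Ntrk2, the gene of the BDNF receptor TrkB (38.0 kb), and Rpia (1249 kb, inside Igk). Further ones were near Ptprg (79.5 kb), Megf10 (17.6 kb), Borcs6 (1.14 kb), Ythdc2 (166 kb), Plod2, a collagen-modifying enzyme gene (565 kb), Slc35b3 (463 kb) and Pak1ip1 (11.2 kb). The last 5 had 4930519F16Rik (8.36 kb), 1700001O22Rik (76.8 kb), Snx7 (243 kb), Hs3st2 (83.2 kb) and Ctc1 (4.03 kb) as their nearest genes.

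Some regions came in pairs. Of the 280, 22 had another within 50 kb, in 11 pairs, and the comparison classes were not counted in this way. The closest pairs were 867 bp apart at chr4:146055464-146056499, in a cluster of zinc finger genes near Zfp987, and 888 bp apart on chromosome 18, 141 kb from Zfp608. Others lay near Pim1, a kinase gene (5.84 kb apart, 26.5 kb from the gene), Ly86 (7.74 kb apart) and Agps (8.59 kb apart). The remaining pairs were at Abt1 and Btn1a1, Il17b, Ctc1 and Borcs6, Rbfox2 and Apol7a, Csnk1g3, and Adamtsl5 and Mex3d, 12.1 to 38.3 kb apart. The 280 regions had 267 different nearest protein-coding genes. By chromosome they were spread from 25 on chromosome 11 to 4 on chromosome 19.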

How the data were processed

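The authors called peaks with HOMER findPeaks in its factor mode, per the file headers. Per the file headers, each list came from 1 ChIP library and IgG BA1, at a false discovery rate of 0.001, with a 2-fold excess and a Poisson p-value limit of 1e-04 required over IgG and over the local 10 kb. The lists' names instead mention IgG with BA2, and the headers were followed. HOMER, Bowtie2, Bowtie and mm10 are named in the submitters' processing notes. The deposited score is 1 for every peak and was not used.

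Gene positions were taken from RefSeq on GRCm38.p6 (21887 protein-coding and 28056 other genes), and strand from its promoter table (17492 protein-coding genes). All 491 list genes matched. Distances run from the peak centre to a gene's start or end, and gaps between peak edges. Coordinates are 1-based. Shares were compared by two-sided Fisher's exact tests with Benjamini-Hochberg adjustment over 6 tests, of which the 2 on gene distance are not reported since that distance chose the regions, in Python 3.11.15 with SciPy 1.17.1. The functions were tested on simulated data. Sequence tests planned for all regions were left out because they need the whole genome, which was not used here. The start-or-end comparison was added after the data were seen.

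The regions, gene lists and tests were chosen with earlier results of these data known. Named genes are those nearest to the 20 first-listed regions, the 10 farthest from and 10 nearest to genes, the 5 nearest to Pygo2 peaks and the pairs within 50 kb, list genes within 100 kb, and non-coding genes at a region. Evx2, Hottip, Fgf10, the microRNA genes and the genes of the other observations were chosen after their values were seen. Alternatives varied the overlap, the gene margin and annotation, the list length, the windows and the spacing of peaks. Some genes that this rule names are not reported here.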

Additional observations from a re-analysis of the deposited data

How the results depend on the processing

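No paired analysis was possible because each group holds 1 library and the result comes from peak positions. The planned sequence tests have no alternatives, as they were not run. The distal share, a description since gene distance chose the regions, had odds ratios of 1.66 to 4.75 against Pygo2-only and 1.32 to 2.41 against shared peaks over 9 alternatives. The odds ratio of the non-coding share against shared peaks was 0.444 with regions within 500 bp of a Pygo2 peak left out. Without predicted genes it was 0.487. The gene start share against shared peaks, near 1 throughout, turned above 1 with regions within 500 bp of a Pygo2 peak left out (1.03). It also did with an overlap of 50% needed (1.11) and with the 5 kb margin (1.01). With the lists ended at the sorted run nearest their middle it was 1.10. The number of regions fell to 142 with lists shortened at their middle and to 126 at that run end. Genes within 100 kb fell to 390 and 368. Fewer peaks enter there, and the classes were formed anew from the shortened lists. A β-catenin peak whose overlapping Pygo2 peak was cut then counted as β-catenin-only, so these counts include peaks that are shared in the full lists. With a 50 kb window, 405 genes had a region. Shortening at the run end and keeping 1 peak per 100 kb were chosen after seeing the data. A mean of 15.5 tags per Pygo2 peak, against a calling minimum of 10, limits what a missing Pygo2 overlap can say.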

Other observations

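Some developmental genes were the nearest protein-coding gene of a region although they lay beyond the 100 kb window, and they were picked from the lists after their values were seen. Foxd3, a neural crest regulator gene, was 153 kb from chr4:99503257-99503425, and Tgfbr2, which encodes a TGF-β receptor, 194 kb from chr9:116368943-116369111. Nr2f1, a nuclear receptor gene of crest and arches, was 651 kb from chr13:78849380-78849548. The nearest Pygo2 peaks were 229 kb, 55.5 kb and 181 kb from these regions. Cps1, a liver enzyme gene, was nearest to a region at 335 kb.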
